A study of Mus musculus with 18 samples.

Results

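Neutrophils from Skin were compared with neutrophils from Lung in 6 libraries, 3 per tissue, of the 18 libraries in the series. The Skin cells came from the ear and the Lung cells from lung of adult C57BL/6 mice aged 8 to 12 weeks. No allele, transgene or treatment is named for either group. Cells carrying CD45, CD11b and Ly6G were sorted, with DAPI to set dead cells apart, at purities typically above 95% per the labels' protocols. The libraries were chosen by their tissue label, and each tissue has replicates 1, 2 and 3. The labels do not say whether replicates were separate or pooled animals, and p-values therefore speak only of variation among the 6 libraries, which may be technical. The series asks how neutrophil transcripts differ among 6 tissues.

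Neutrophils are short-lived phagocytes that are released from bone marrow and enter tissues through vessels. The lung holds many of them inside its capillaries, against the endothelium, while the skin holds few at rest and they lie near a keratin-rich epidermis. They carry little RNA per cell, so RNA from neighbouring cells, even a small number of them, can be seen beside their own. Known neutrophil transcripts include those of the calcium-binding alarmins S100a8 and S100a9, the receptors Csf3r and Cxcr2 and the cytokine Il1b.

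The value reported is a scaled count: an estimated read count per gene divided by an effective library size, times 1e+06, without division by gene length. Libraries held between 5680030 and 10365300 estimated counts in Skin and between 2935580 and 10822200 in Lung. Between 9179 (Skin 2) and 13581 genes were above 0 counts in Skin, and between 13217 and 15525 in Lung. The Skin libraries stood apart from each other. On the log2 scale the root mean square difference between a pair of libraries was 2.32 to 3.11 within Skin and 1.28 to 1.67 within Lung, over the same 12142 genes. Skin 3 was 1.90 to 2.21 from the Lung libraries and Skin 1 was 2.15 to 2.30 from them. Each was thus nearer to every Lung library than to any other Skin library. Skin 2 was nearest to Skin 3 (2.88), against 2.96 to 3.16 for Lung. All values summed to 1527620, 2465200 and 1112180 in Skin 1, 2 and 3 and to 771415 to 1054550 in Lung, since the deposited scaling does not set totals equal. A count of 3 was worth 0.515, 1.51 and 0.651 scaled counts in Skin 1, 2 and 3, and 0.915, 0.278 and 0.393 in Lung 1, 2 and 3.

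A family of 12 gene models related by sequence to Gm10800 took 54.7%, 43.6% and 26.4% of the estimated counts in Skin 1, 2 and 3. The same family took 4.96%, 4.63% and 9.02% in Lung 1, 2 and 3 and 1.07% to 8.89% in the 12 libraries of the other 4 tissues. The Skin and Lung shares did not overlap, and the exact permutation test gave p = 0.10, the smallest that 3 against 3 libraries allow. Values are divided by an effective library size and not by total counts. Without this family they summed to 693233, 1393810 and 819153 in Skin 1, 2 and 3. In Lung 1, 2 and 3 these sums were 733357, 820201 and 959609. Skin 2 had the highest of these sums, which limits each statement below that a gene was highest in Skin 2. The effect of the satellite share on the levels of other genes was not tested.

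**Figure D1:**
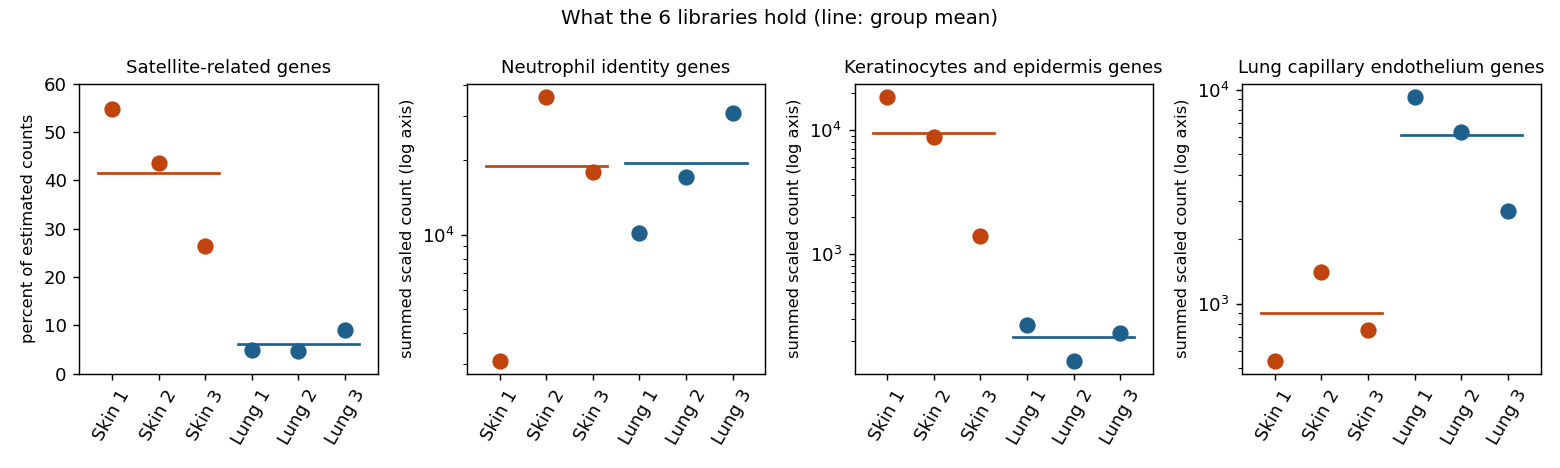
Each panel plots 1 point per library, Skin in orange and Lung in blue, with a line at the group mean; the left panel is the percent of estimated counts from the satellite-related family and the others are summed scaled counts of a gene list on a log axis. The satellite share was 26.4% to 54.7% in Skin and 4.63% to 9.02% in Lung, the neutrophil sums overlapped, the keratinocyte sums were higher in all 3 Skin libraries and the lung capillary sums in all 3 Lung libraries.

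Of 12142 genes tested, 36 (0.296%) passed at an adjusted p of 0.05 (limma, Benjamini-Hochberg), 29 higher in Skin (0.239%) and 7 higher in Lung (0.0577%). Among the 29 genes higher in Skin, 7 belonged to a list of keratinocyte and epidermis genes, 9 to the satellite-related family and 13 to neither. Among the 7 genes higher in Lung, 4 belonged to a list of endothelial genes. The cell type lists were chosen with earlier results of these data known, so these counts are descriptions. No gene of the neutrophil identity list passed. In these bulk samples fewer cells of a type and less RNA per cell cannot be told apart. At an unadjusted p under 0.05 there were 1660 genes, 424 higher in Skin and 1236 higher in Lung.

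More genes leaned to Lung than to Skin without passing. The log2 difference, Skin minus Lung on log2(scaled count + 1), had a median of -0.69 over all genes tested and was negative for 68.2% of them. This lean depends on the scaling. The median was -1.32 with the protein-coding total, -0.09 with quantile scaling and 0.17 with median ratio scaling. All 3 Lung libraries were above all 3 Skin libraries for 1815 genes (14.9%), and the reverse held for 632 genes (5.21%), 2447 (20.2%) in all. Of those 632 genes, 66.6% were highest in Skin 2, against 26.1% of all genes tested, and 8.86% were pseudogenes, against 3.35%. Skin 2 also had the fewest genes above 0 counts, and its part in these genes was not tested. Just inside the threshold lay Gm11346 (adjusted p 0.0488) and just outside it Cyp4b1 (0.0502), so the count of 36 turns on small differences in p. It also turned on single libraries. Without Skin 1 no gene passed (2412 at an unadjusted p under 0.05), without Skin 2 there were 11 (3 higher in Skin, 8 in Lung), without Skin 3 there was 1, and without Lung 3 there were 73. Without a trend in limma's prior no gene passed (1708 at an unadjusted p under 0.05), and scaling to the protein-coding total gave 26 genes, 61.5% of them higher in Skin against 80.6% here.

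**Figure D2:**
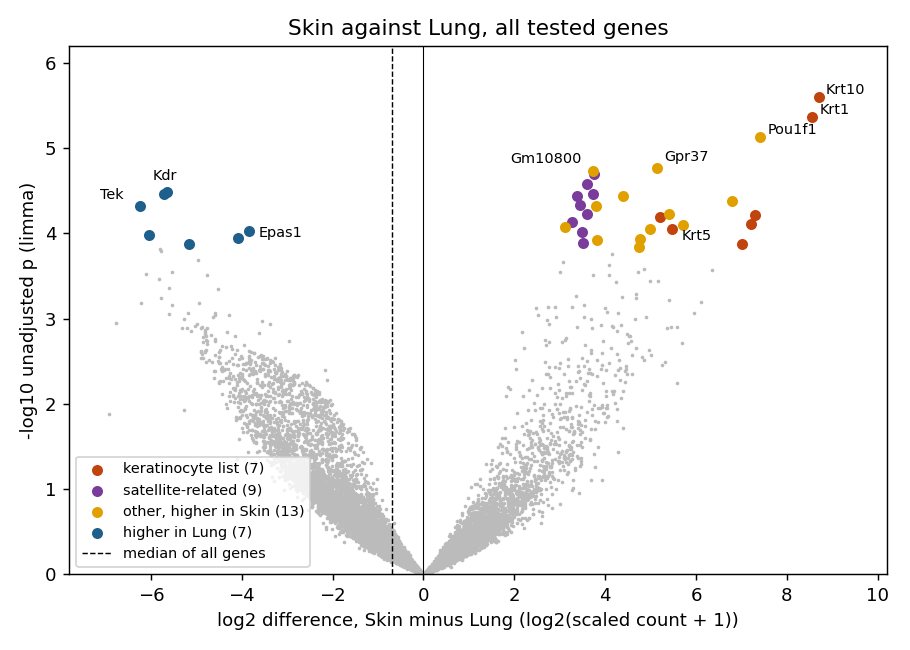
Each point is 1 of the 12142 genes tested, with the log2 difference (Skin minus Lung) on the x axis and -log10 of the unadjusted limma p on the y axis; coloured points passed, by class, and the dashed line is the median of all genes. Krt10 and Krt1 lay farthest to the right, the 7 keratinocyte genes spanned log2 differences of 5.21 to 8.70 and the 9 satellite-related genes 3.26 to 3.75.

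Keratin genes showed the highest contrast. Krt10, which encodes a keratin of the differentiating upper epidermis (GRCm38 chr11:99385254-99389364, minus strand), had 2219, 637 and 171 scaled counts in Skin 1, 2 and 3 and 0.392, 0.235 and 0.954 in Lung 1, 2 and 3. Its log2 difference was 8.70 ± 1.15 (SE, n = 3 per tissue, adjusted p = 0.0263). Krt1, the usual filament partner of Krt10, had 384, 1273 and 154 in Skin and 0.131, 0.198 and 0.0561 in Lung (8.56 ± 1.18, adjusted p = 0.0263). Krt1 was below the value of 3 counts in every Lung library and Krt10 in 2 of them, and both were at least 154 in every Skin library. The filter on low values asked for at least 1 in 3 of the 6 libraries. Every Lung value of both genes was below 1, so they passed it through Skin alone. Their separation was fixed by the filter, and their p-values are descriptions.

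Desmosomal and basal genes of the epidermis showed the same separation. Dsg1a, a cadherin of desmosomes, had 480, 1331 and 67.3 in Skin and 0.131, 0.456 and 5.91 in Lung (7.29 ± 1.29, adjusted p = 0.0385). Krt15, a keratin of basal cells and the hair bulge, had 1192, 1038 and 144 in Skin against 14.8, 14.6 and 13.5 in Lung (5.21 ± 0.93, adjusted p = 0.0389). The basal keratin pair Krt5 and Krt14 also passed. Krt5 had 4048, 470 and 327 in Skin and 27.6, 6.47 and 32.4 in Lung, and Krt14 had 3818, 343 and 78.2 in Skin and 10.3, 0.436 and 1.96 in Lung. In both, Skin 1 was several times above the other Skin libraries. Col17a1, a collagen that anchors basal keratinocytes, had 664, 445 and 41.8 in Skin and at most 1.18 in Lung, with a log2 difference of 7.21 ± 1.31.

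Skin 3 was the lowest Skin library in all 7 of these genes, and none of them overlapped with Lung. Of 25 keratinocyte and epidermis genes, 18 passed the filter on low values, 7 of these were higher in Skin and none was higher in Lung. Over all genes tested, 0.239% were higher in Skin and 0.0577% higher in Lung. A gene of this list that passed the filter through its Skin values alone, such as Krt10 or Krt1, had to differ. The count of 7 and the list's median log2 difference of 5.01, beside -0.69 over all genes, are therefore descriptions. The summed level of the list was 18560, 8732 and 1398 in Skin and 268, 139 and 231 in Lung (exact permutation p = 0.10; adjusted 0.613 over 49 sums and shares). It was 7.38 to 238 in the other 4 tissues. None of the 25 genes was at 0 counts in Skin 1, while 7 were in Skin 2, 6 in Skin 3 and 10, 7 and 4 in Lung 1, 2 and 3. The order of the summed keratinocyte levels, Skin 1 above 2 above 3, was not the order of the neutrophil sums.

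The promoter of Krt10 is shown as an example of the epidermal genes that were higher in Skin, with that of Kdr as an example of the endothelial genes that were higher in Lung. Each runs from 250 bases before to 50 bases after the start of the gene (RefSeq, GRCm38.p6), 5′ to 3′ on the strand of the gene, at chr11:99389315-99389614 (minus strand) for Krt10 and chr5:75978406-75978705 (minus strand) for Kdr. Capitals mark TATAAA and AGATAA in Krt10 and ACTTCC, which is GGAAGT read on the other strand, in Kdr.
Krt10: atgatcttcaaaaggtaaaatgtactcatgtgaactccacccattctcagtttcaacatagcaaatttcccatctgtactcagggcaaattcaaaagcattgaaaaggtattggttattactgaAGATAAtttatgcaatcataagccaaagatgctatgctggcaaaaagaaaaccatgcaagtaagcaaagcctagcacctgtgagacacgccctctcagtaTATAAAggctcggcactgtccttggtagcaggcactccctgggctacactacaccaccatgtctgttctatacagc
Kdr: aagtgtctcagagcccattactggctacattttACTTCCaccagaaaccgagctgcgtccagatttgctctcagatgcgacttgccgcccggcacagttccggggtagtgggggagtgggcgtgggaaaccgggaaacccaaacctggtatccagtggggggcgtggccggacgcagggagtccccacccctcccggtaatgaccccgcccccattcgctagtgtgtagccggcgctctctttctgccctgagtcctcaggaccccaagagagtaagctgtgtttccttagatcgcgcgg
A TATAAA lay 26 bases before the Krt10 start. Each motif was searched on both strands. Of 27025 promoters, 14.2% held TATAAA, 24.1% held GGAAGT and 11.4% held AGATAA. Promoters were given for 4 of the 7 keratinocyte genes that passed, of which 2 held TATAAA, and for 3 of the 4 endothelial genes, of which 0 held it. GGAAGT was in 1 of these 4 and 1 of these 3, and AGATAA in 2 of the 4 and 1 of the 3. These matches are descriptions of the letters.

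**Figure D3:**
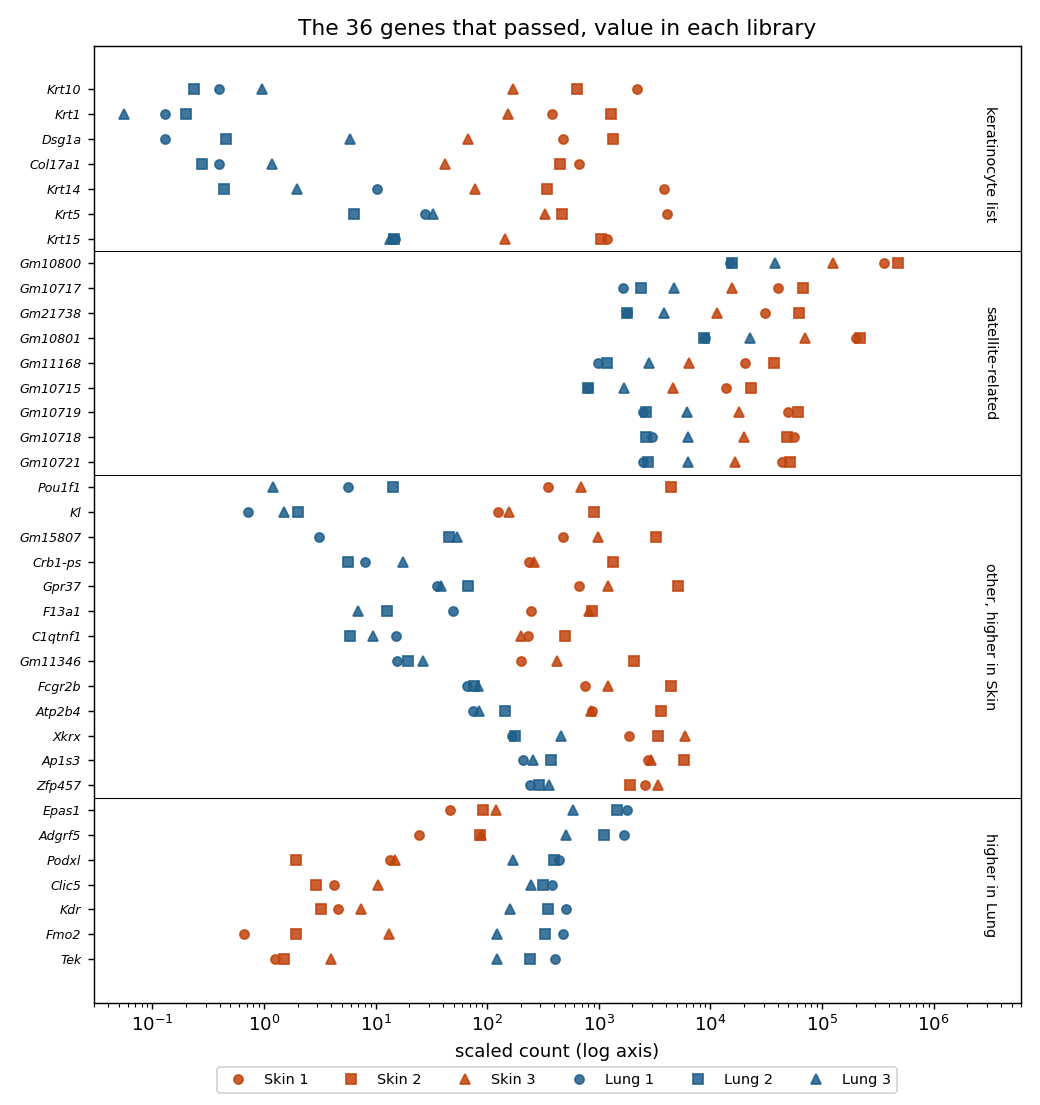
Each row is 1 of the 36 genes that passed, and each symbol is the scaled count of 1 library on a log axis, Skin in orange and Lung in blue, with circles, squares and triangles for replicates 1, 2 and 3. In every row the 3 Skin symbols and the 3 Lung symbols do not overlap, Skin 2 is the highest Skin library in 11 of the 13 genes of the third block, and Skin 1 in 5 of the 7 keratinocyte genes.

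The other 13 genes higher in Skin came from unlike families, and 11 of them were highest in Skin 2. Pou1f1, a homeodomain factor known from the pituitary, had 353, 4471 and 694 scaled counts in Skin and 5.66, 14.3 and 1.21 in Lung (7.41 ± 1.07, adjusted p = 0.0302). Kl, which encodes the FGF23 co-receptor alpha-klotho known from kidney, had 124, 899 and 156 in Skin and 0.726, 2.005 and 1.499 in Lung (6.79 ± 1.16, adjusted p = 0.0362). Gpr37, an orphan receptor known from the nervous system, had 669, 5153 and 1201 in Skin and 35.2, 66.7 and 38.3 in Lung (5.13 ± 0.80, adjusted p = 0.0362). In all 3 genes Skin 2 was several times above Skin 1 and Skin 3, and the lowest Skin library was still above every one of the 12 libraries of the other tissues, where the highest values were 29.8, 12.5 and 151.

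Fcgr2b and F13a1, of these 13, are known from myeloid cells. Fcgr2b, the inhibitory Fc receptor for IgG, had 748, 4450 and 1196 in Skin and 65.9, 76.7 and 81.9 in Lung (4.39 ± 0.74, adjusted p = 0.0362). It was the 1 gene that passed among 19 tested Fc and paired receptors, a list with a median of -0.50. Over all genes tested, 0.296% passed. F13a1, the clotting factor XIII A chain that macrophages and platelets make, had 245, 874 and 822 in Skin and 49.3, 12.6 and 7.02 in Lung (4.99 ± 0.92, adjusted p = 0.0413). Skin 1 stayed below the highest of the other 12 libraries for F13a1, at 306. The macrophage and monocyte list beside them had summed levels of 2165, 5702 and 4214 in Skin and 2577, 1603 and 1051 in Lung, with 3, 3 and 1 of its 24 genes at 0 counts in Skin and 0, 0 and 3 in Lung. The part of macrophage RNA in Fcgr2b and F13a1 was not tested.

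The remaining protein-coding genes of the 13 were an assorted group. Xkrx, of the XK family, had 1878, 3366 and 5943 in Skin and 168, 177 and 463 in Lung (3.80 ± 0.66). Ap1s3, a small subunit of the AP-1 clathrin adaptor, had 2778, 5794 and 2920 in Skin and 208, 376 and 257 in Lung (3.72 ± 0.59). Zfp457, a zinc-finger protein, had 2582, 1894 and 3386 in Skin and 242, 291 and 354 in Lung (3.12 ± 0.57). Within each tissue these 3 genes stayed within about the same order of magnitude, and each Skin library was above each Lung library. C1qtnf1, a secreted C1q and TNF related protein, had a log2 difference of 4.77 ± 0.90 and Atp2b4, a plasma membrane calcium pump, of 3.83 ± 0.73. The gene models Gm15807, Gm11346 and Crb1-ps had 477, 202 and 236 in Skin 1, 3248, 2070 and 1349 in Skin 2 and 978, 418 and 263 in Skin 3. In Lung these 3 gene models were between 3.08 and 53.9.

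The satellite-related genes were chosen by sequence. For each gene, at least 20% of the 20-base words of its transcript occur in Gm10800 on either strand. All 12 hold a 24-base word of Gm10800, in capitals below, in up to 4 copies. The first 74 bases of the Gm10800 transcript (GENCODE vM21, GRCm38, chromosome 2, 5′ to 3′ on the strand of the transcript) are shown because reads of such repeats can be assigned to any copy. The family lies on chromosomes 2, 9 and 14, and its letters resemble the major satellite repeat of mouse centromeres.
Gm10800: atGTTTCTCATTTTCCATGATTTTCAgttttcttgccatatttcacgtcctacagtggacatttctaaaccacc
Of the 12 genes, 9 passed, all higher in Skin (0.239% of all genes tested), at log2 differences of 3.26 to 3.75. They are uncertain one by one because near-identical copies share reads. Gm10800 had 361273, 481525 and 124446 scaled counts in Skin and 15072, 15586 and 37887 in Lung (3.75 ± 0.60, adjusted p = 0.0362). Gm10801 followed with 202779, 218537 and 70156 in Skin and 8905, 8808 and 22697 in Lung (3.59 ± 0.59). Skin 3 was the lowest Skin library and Lung 3 the highest Lung library in both. Under quantile scaling, which gives every library the same distribution, the log2 difference of Gm10800 was 0, since it was the top gene in each library.

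Of the 7 genes that passed as higher in Lung, 4 (Kdr, Tek, Epas1 and Adgrf5) were on an endothelial list, Fmo2 was on the lung mesenchyme and muscle list, and Clic5 and Podxl were on neither. Tek, the angiopoietin receptor (GRCm38 chr4:94739289-94874976, plus strand), had 403, 243 and 122 scaled counts in Lung 1, 2 and 3 and 1.25, 1.51 and 3.999 in Skin (log2 difference Skin minus Lung -6.24 ± 1.08, adjusted p = 0.0362). Kdr, the receptor for VEGF-A on endothelium, had 512, 353 and 159 in Lung and 4.59, 3.25 and 7.40 in Skin (-5.72 ± 0.96, adjusted p = 0.0362). Lung 1 was the highest Lung library in both, and no Skin library overlapped with Lung.

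The same order of Lung libraries ran through the other genes that passed. Epas1, the hypoxia-inducible factor HIF-2 alpha that is abundant in lung endothelium, had 1800, 1456 and 590 in Lung and 46.0, 92.3 and 120 in Skin (-3.84 ± 0.71, adjusted p = 0.0413). Adgrf5, an adhesion G-protein-coupled receptor found on lung endothelium, had 1676, 1103 and 508 in Lung and 24.3, 86.4 and 87.1 in Skin (-4.08 ± 0.77, adjusted p = 0.0459). Clic5, a chloride channel family protein, had 383, 314 and 248 in Lung and 4.27, 2.92 and 10.6 in Skin (-5.65 ± 0.94, adjusted p = 0.0362). Lung 1 was highest and Lung 3 lowest in each of these genes. Podxl, a sialomucin of endothelium and podocytes, had 443, 395 and 169 in Lung and at most 14.8 in Skin (-5.15 ± 0.99). Fmo2, the flavin monooxygenase of lung, had 473, 328 and 123 in Lung and 0.662, 1.95 and 13.1 in Skin (-6.03 ± 1.13, adjusted p = 0.0438). For Podxl the highest of the other 12 libraries (492) was above every Lung library. For Kdr (387), Fmo2 (325), Epas1 (792) and Tek (169) it was above at least 1 of them. For Clic5 (92.4) and Adgrf5 (404) it was below all 3.

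A pair of lists describes the endothelium. Both were chosen with earlier results of these data known, so their counts are descriptions. Of all genes tested, 0.0577% passed as higher in Lung. Of 19 tested general endothelial genes, 2 (Kdr and Tek) were lower in Skin and 17 did not pass, with a median of -3.75. Of 20 lung capillary genes, 2 (Epas1 and Adgrf5) were lower in Skin and 18 did not pass, with a median of -3.96, beside -0.69 over all genes. In 16 of these 20 all 3 Lung libraries were above all 3 Skin libraries, which held for 14.9% of all genes tested. Pecam1, the platelet and endothelial adhesion molecule CD31, had 576, 323 and 175 in Lung and 23.98, 2.38 and 11.8 in Skin (-4.96) and did not pass (adjusted p = 0.0617). The phosphatase Ptprb (-4.52), the capillary monooxygenase Cyp4b1 (-5.81) and the adhesion receptor Adgrl4 (-5.79) did not pass either, at adjusted p of 0.0961, 0.0502 and 0.0513. The summed level of the capillary list was 9244, 6359 and 2722 in Lung and 543, 1400 and 756 in Skin (exact permutation p = 0.10; adjusted 0.613). It was 67.7 to 325 in BM, Blood and Spleen and 1822 to 4036 in Intestine. None of the capillary genes was at 0 counts in Lung, and 2, 5 and 2 were in Skin 1, 2 and 3. The part of endothelial RNA in the Lung values was not tested.

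Alveolar genes of the lung leaned the same way, and no epithelial gene of the lung passed. Slc34a2, the phosphate carrier of type II alveolar cells, had 403, 332 and 84.2 in Lung and 0.662, 1.95 and 39.9 in Skin (-5.27 ± 1.27, adjusted p = 0.137). Sftpc, the surfactant protein of the same cells, had 2307, 1350 and 205 in Lung and 3.61, 63.8 and 183 in Skin (-4.50 ± 1.22, adjusted p = 0.172). Skin 3 held 183 scaled counts of Sftpc, close to the 205 of Lung 3. The junction protein Cldn18 (-4.88) and the type I cell receptor Ager (-4.73) did not pass. Over 18 tested alveolar genes the median was -3.14 and over 6 airway genes -2.28. Of all genes tested, 0.0577% passed as higher in Lung. Over 14 lung mesenchyme and muscle genes the median was -2.74, with Fmo2 the 1 gene that passed. Hhip, a hedgehog-binding protein of that list, was near 0 counts in Skin and 106, 22.02 and 17.9 in Lung (-4.81, adjusted p = 0.172). It reached 500 in the other 12 libraries.

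The rule for genes higher in Lung left places for protein-coding genes that did not pass. Dnajb1, a co-chaperone, was at 0 counts in all 3 Skin libraries and had 89.2, 104 and 47.9 in Lung, at least 89.9-fold higher against a floor of 3 counts per library (adjusted p = 0.0737). Cox5a, a subunit of cytochrome c oxidase, was also at 0 counts in every Skin library and had 41.9, 36.4 and 42.4 in Lung, at least 45.0-fold higher (adjusted p = 0.134). Of the 12142 genes tested, 208 were at 0 counts in all 3 Skin libraries and 14 in all 3 Lung libraries. Such genes passed the filter on low values through the other tissue alone, so their separation was fixed by the filter. This holds for Dnajb1 and Cox5a, and for Mcpt4 and Ppbp below. Col4a1 and Ces1d here, Hhip above and Ifi47 below also passed the filter through Lung alone. The p-values of all these genes are descriptions. Skin 2 had the fewest genes above 0 counts (9179), and its part in these numbers was not tested. The others included Heg1, a vascular receptor (-4.77), Col4a1, a basement membrane collagen (-6.22), the apoptosis ligand Tnfsf10 (-5.82), complement C7 (-5.61), Cavin2 of caveolae (-4.58), the tetraspanin Tspan7 (-3.38), the junction protein Jcad (-4.58), the scaffold Akap5 (-3.56), the lipid-binding Sec14l3 (-5.54) and the carboxylesterase Ces1d (-5.59). Their adjusted p ran from 0.0737 to 0.143.

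Macrophage genes differed in sign from gene to gene, and none passed the test. Mrc1, the mannose receptor of tissue macrophages, had 459, 1912 and 673 in Skin and 184, 103 and 26.9 in Lung (3.37 ± 0.84, adjusted p = 0.143). Apoe, an apolipoprotein that macrophages secrete, had 697, 682 and 858 in Skin and 219, 121 and 56.9 in Lung (2.68 ± 0.70, adjusted p = 0.165). Chil3, a chitinase-like protein of alveolar macrophages and neutrophil precursors, had 1.69, 4.54 and 153 in Skin and 914, 482 and 129 in Lung (-4.87 ± 1.33). Ear2, an RNase of alveolar macrophages, had 0.221, 0.216 and 3.15 in Skin and 121, 43.4 and 26.2 in Lung (-4.85 ± 1.35). The groups did not overlap for Mrc1, Apoe and Ear2, and they did for Chil3. Over the 23 tested monocyte and macrophage genes the median was 1.11 and 0 were higher in either tissue.

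Other cell lists held no gene that passed. Col1a1 and Col1a2, the chains of type I collagen, had log2 differences of 3.53 ± 0.85 and 3.12 ± 0.81 (adjusted p = 0.136 and 0.165), while the median of 19 fibroblast and matrix genes was -0.46. The mast cell protease Mcpt4 had 170, 7.14 and 7.91 in Skin and was at 0 counts in all 3 Lung libraries, at least 116-fold higher in Skin on the mean, most of it from Skin 1 (adjusted p = 0.174). The B cell factor Pax5 had 4.64, 1.95 and 0.651 in Skin and 72.5, 96.6 and 44.1 in Lung (-4.51, adjusted p = 0.172), and 13 tested B cell genes had a median of -2.53. The platelet chemokine Ppbp was at 0 counts in Skin and had 30.4, 43.8 and 12.9 in Lung, at least 32.5-fold higher (adjusted p = 0.165). The hair follicle factor Sox9 had 130, 34.6 and 16.7 in Skin and at most 1.96 in Lung (4.18, adjusted p = 0.187). Medians of the lists not yet named were 0.11 for hair follicle and sebaceous gland, -0.39 for skeletal muscle and cartilage, 0.04 for dendritic and Langerhans cells, 1.80 for mast cells and basophils, -2.16 for eosinophils, -0.98 for T and NK cells, -0.94 for erythroid cells and -1.92 for platelets.

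**Figure D4:**
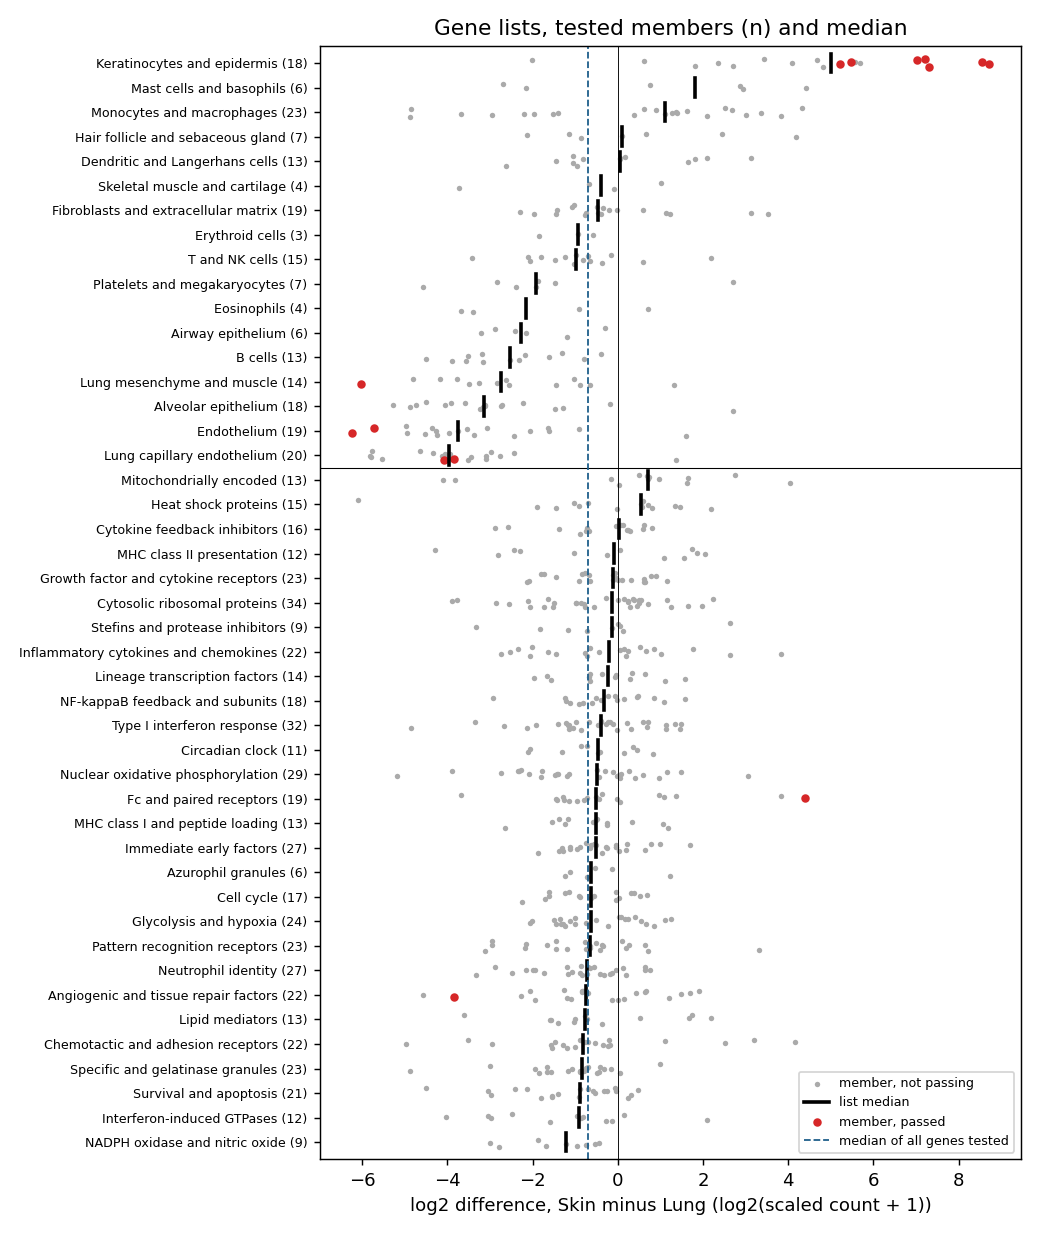
Each row is a gene list with its number of tested genes, each dot is a tested gene at its log2 difference (Skin minus Lung), red dots passed, black bars are list medians and the dashed line is the median of all genes, -0.69. Lists of other cells are above the line across the plot and spread from 5.01 for keratinocytes to -3.96 for lung capillaries, while the lists of neutrophil states below it have medians between -1.22 and 0.70.

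Most genes that mark neutrophils overlapped between the tissues, as did most genes tested, of which 20.2% did not overlap. Of 27 tested identity genes 25 overlapped. The other 2, Wfdc21 and Ceacam1, had all 3 Lung libraries above all 3 Skin libraries, against 14.9% of all genes. The sorted antigen genes were uneven. Ptprc, which encodes CD45, had 458, 3610 and 2632 in Skin and 2103, 2997 and 5398 in Lung, and Itgam, which encodes CD11b, had 163, 889 and 681 in Skin and 524, 836 and 1348 in Lung. Ly6g was at 0.221 and 0.216 in Skin 1 and Skin 2, at or near 0 counts, and at 26.9 in Skin 3, beside 37.2, 20.1 and 19.9 in Lung (-2.89 ± 1.51, adjusted p = 0.436). It was 0.346 to 566 in the other 12 libraries, with a median of 46.3, so Skin 1 and Skin 2 were below all of them. A low Ly6g level was also seen outside Skin, at 0.346. Skin 1 was the lowest of the 6 libraries for Ptprc and Itgam.

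Among the alarmins and receptors Skin 1 was again the lowest library. S100a9 had 608, 8093 and 3880 in Skin and 2388, 3424 and 7486 in Lung. S100a8 had 77.0, 2992 and 978 in Skin and 362, 601 and 1364 in Lung. Csf3r, the G-CSF receptor, had 194, 2818 and 1857 in Skin and 971, 1888 and 3230 in Lung. Each of these 3 genes was highest in Skin 2 or Lung 3. The chemokine receptor Cxcr2 had 54.4, 1724 and 906 in Skin and 356, 900 and 1699 in Lung. Cxcr4, a receptor of bone marrow retention and of ageing neutrophils, had 92.6, 1684 and 526 in Skin and 258, 535 and 880 in Lung. None of these passed, and in each the Skin range held most or all of the Lung range. The summed level of the neutrophil identity list was 3110, 36007 and 17951 in Skin and 10189, 17098 and 30876 in Lung (exact permutation p = 1), with a median log2 difference of -0.73 over 27 tested genes and 0 past the test. As a percent of the estimated counts outside the satellite-related family, this list took 0.450, 2.60 and 2.20 in Skin and 1.40, 2.09 and 3.22 in Lung. On that scale Lung 3 was highest, while by the sum it was Skin 2. By both measures Skin 1 held the least neutrophil signal, and the same library held the highest keratinocyte sum.

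Transcripts of granule proteins, which neutrophils make mainly in bone marrow, did not differ past the test. Camp, the cathelicidin of specific granules, did not pass the filter on low values, with 0.221, 0.216 and 12.6 in Skin and 0.131, 2.34 and 0.505 in Lung, beside 2541 to 3119 in BM. Ltf, lactoferrin of the same granules, had 0.0736, 1.51 and 52.2 in Skin and 45.1, 14.96 and 8.03 in Lung (-1.84 ± 1.60, adjusted p = 0.648). Mmp9, gelatinase B, had 32.0, 758 and 889 in Skin and 675, 1311 and 1412 in Lung (-1.94 ± 1.03, adjusted p = 0.443). The secreted protein Retnlg had 5.37, 204 and 271 in Skin and 190, 264 and 636 in Lung, the antigen Cd177 had 0.662, 133 and 124 in Skin and 72.0, 39.7 and 86.8 in Lung, and Ly6c2 had 0.579, 2.39 and 67.0 in Skin and 32.5, 21.8 and 27.0 in Lung. None of 23 tested specific and gelatinase granule genes and none of 6 azurophil genes passed.

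Il1b, Cxcl2 and Ptgs2 stood above the other 4 tissues in most libraries of both tissues. Il1b, the cytokine interleukin-1 beta, had 1134, 21432 and 8043 in Skin and 5329, 9252 and 15314 in Lung, and 5 of these 6 values were above the highest of the other 12 libraries (3745). Cxcl2, a chemokine that attracts neutrophils, had 166, 2017 and 1138 in Skin and 435, 551 and 1203 in Lung, all 6 above the highest of the others (69.3). Ptgs2, the inducible cyclooxygenase, had 123, 7386 and 2868 in Skin and 1248, 2812 and 3790 in Lung, with Skin 1 alone not above the others (345). These comparisons with other tissues are descriptions with no test. Il1r2, the decoy interleukin-1 receptor, had 217, 1282 and 543 in Skin and 205, 270 and 733 in Lung. The angiogenic factor Vegfa had 135, 28.0 and 280 in Skin and 187, 167 and 147 in Lung, and the Skin range enclosed the Lung range. Cxcl10, an interferon-induced chemokine, was 1232 in Skin 2, 17.4 and 23.9 in the other Skin libraries and at most 11.6 in Lung (3.83 ± 1.61, adjusted p = 0.299). Ccl9, a CC chemokine, had 96.0, 1496 and 260 in Skin and 83.0, 38.5 and 46.2 in Lung (2.64 ± 0.96, adjusted p = 0.230).

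**Figure D5:**
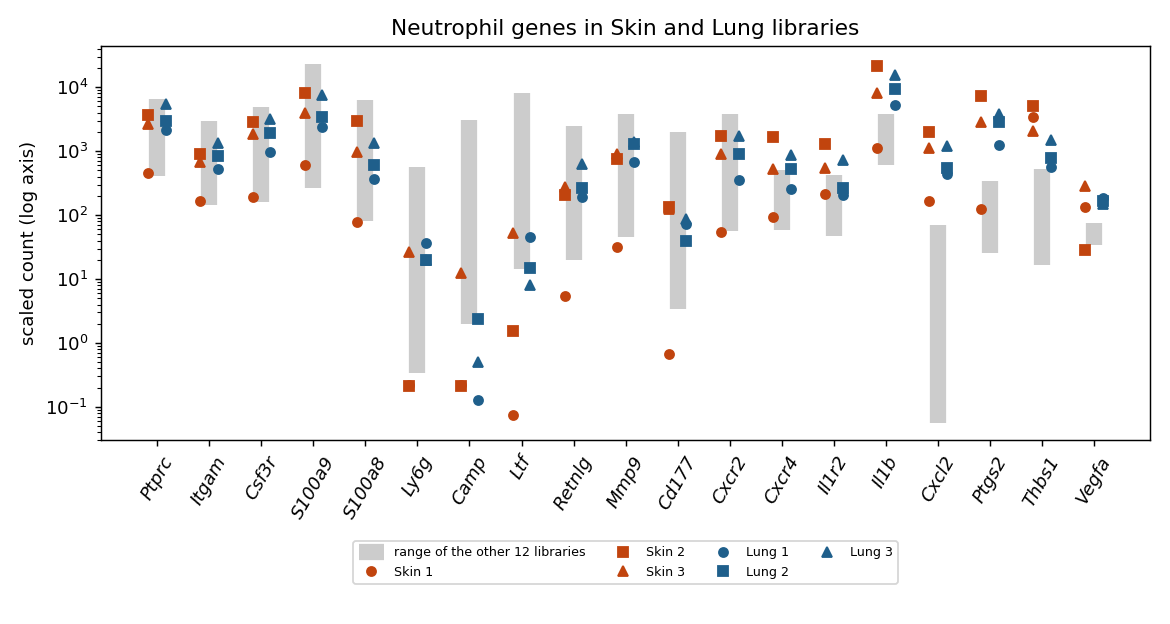
Each column is a gene, orange symbols are the 3 Skin and blue symbols the 3 Lung libraries as scaled counts on a log axis, and grey bars span the lowest to the highest of the 12 libraries of the other tissues. Skin 1 (circle) lies below the other Skin libraries in most columns, and for Cxcl2 and Thbs1 all 6 symbols lie above the grey bar, whose tops are 69.3 and 530.

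Thbs1, thrombospondin-1, a matrix protein that inhibits vessel growth, was 1 of 2 angiogenesis and repair genes, of 22, whose 3 Skin libraries were all above the 3 Lung libraries (5.21% of all genes), while 4 had the reverse (14.9% of all genes). It had 3410, 5027 and 2060 in Skin and 574, 786 and 1512 in Lung (1.90 ± 0.60, adjusted p = 0.185), and all 6 were above the highest of the other 12 libraries (530). It did not pass. Nrp1, a co-receptor for VEGF and semaphorins, had 4.74, 1.08 and 45.3 in Skin and 327, 240 and 95.5 in Lung (-4.58 ± 1.19, adjusted p = 0.165). Epas1, above, was the 1 gene of 22 in this list that passed, beside 0.296% of all genes tested.

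Genes of neutrophil function that leaned to Lung did not pass. Ncf1, the p47 subunit of the NADPH oxidase, had 80.0, 277 and 433 in Skin and 583, 956 and 845 in Lung (-1.87 ± 0.72, adjusted p = 0.255). Cyba, its p22 subunit, had 15.4, 2.44 and 82.1 in Skin and 120, 122 and 159 in Lung (-2.99 ± 1.14, adjusted p = 0.249). In both genes every Lung library was above every Skin library, and all 9 tested genes of the oxidase and nitric oxide list had negative log2 differences, as did 68.2% of all genes tested, with 0 past the test. Wfdc21, a secreted protease-inhibitor-like protein, had 2.72, 0.649 and 7.53 in Skin and 27.05, 29.3 and 62.6 in Lung (-3.34, adjusted p = 0.260). The lectin receptor Clec12a (-3.13, adjusted p = 0.233) leaned the same way and the scavenger receptor Msr1 (3.32, adjusted p = 0.255) and the anaphylatoxin receptor C3ar1 (4.17, adjusted p = 0.143) the opposite way.

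Antigen presentation and interferon genes were mixed. Cd74, the invariant chain of MHC class II, had 767, 3276 and 1088 in Skin and 948, 489 and 125 in Lung (1.85 ± 0.80, adjusted p = 0.313). H2-Aa, a class II alpha chain, had 447, 1177 and 554 in Skin and 447, 197 and 44.9 in Lung (2.06 ± 0.84, adjusted p = 0.280), while H2-Ob, the class II chain known from B cells, had 0.515, 1.51 and 0.651 in Skin and 48.5, 48.9 and 17.9 in Lung (-4.29 ± 1.29, adjusted p = 0.173). The interferon-induced GTPases Iigp1 (-4.04, adjusted p = 0.186) and Ifi47 (-4.86, adjusted p = 0.160) were near 0 counts in Skin. None of 32 type I interferon genes, 12 interferon-induced GTPases, 13 class I genes or 12 class II genes passed.

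General cell programmes had medians near that of all genes or above it, with no gene past the test. The medians were -0.14 for 34 cytosolic ribosomal protein genes, -0.49 for 29 nuclear oxidative phosphorylation genes, -0.64 for 24 glycolysis and hypoxia genes, -0.63 for 17 cell cycle genes, -0.47 for 11 clock genes and 0.55 for 15 heat shock genes. Lists of regulation lay at -0.32 for 18 NF-kappaB genes, -0.52 for 27 immediate early factors, 0.02 for 16 cytokine feedback inhibitors, -0.10 for 23 growth factor and cytokine receptors, -0.23 for 14 lineage factors and -0.90 for 21 survival genes. Those of receptors and mediators lay at -0.66 for 23 pattern recognition receptors, -0.81 for 22 chemotactic and adhesion receptors, -0.78 for 13 lipid mediator genes and -0.20 for 22 cytokines and chemokines, and 9 stefins and protease inhibitors lay at -0.15. Mitochondrially encoded genes disagreed among themselves. mt-Nd4l, a subunit of complex I, had 572, 1108 and 130 in Skin and 60.8, 12.3 and 21.8 in Lung (4.04 ± 0.95, adjusted p = 0.134), while the 13 tested genes ranged from -4.11 to 4.04 with a median of 0.70. As the median of all genes moves with the scaling, from -1.32 to 0.17 among the scalings tried, the sign of a list median this near to 0 is not a direction.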

How the data were processed

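Gene expression was measured in 3 Skin and 3 Lung libraries of total RNA, amplified by the Ovation Single Cell RNA-Seq System and sequenced from one end, per the labels' protocols. The submitters' processing notes name CASAVA, RSEM 1.3.1, limma and the mm10 build, in no order. The deposited table names TPM, but its values are a signal without gene length: the authors' estimated count plus 0.5, over an effective library size plus 1, times 1e+06, as read from the values. The design assumed TPM and the limma test on log2(value + 1) was kept. Counts recovered from the library floors were not whole for many genes, so no count test was run. Strand use is not stated, so antisense overlaps are uncertain.

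Genes that reached 1 in 3 or more of the 6 libraries were fitted with limma 3.58.1 (R 4.3.3, data.table version 1.17.8), with a trended prior, 4 residual degrees of freedom and Benjamini-Hochberg adjustment at 0.05; log2 differences on this scale understate changes of low genes. Names came from GENCODE vM21 (31899 of 32328 identifiers). Gene lists and members were chosen with earlier results of these data known. Named genes were the 14 per direction with the largest log2 difference, protein-coding, averaging 20 or more where higher, libraries not overlapping and in no other-cell list, with places left filled by smallest unadjusted p; up to 4 per described list; and 20 fixed genes. Some genes set by this rule are not reported here. Genes named beyond this rule (Krt5, Krt14, Col17a1, Zfp457, Gm15807, Gm11346 and Crb1-ps) were chosen after their values were seen. On data simulated with the spread of these libraries the fit missed most changed genes, so a gene that did not pass may still differ. Bounds and floors of 3 counts cover counting error only. Other pseudocounts, filters, scalings, weights, priors, the replicate block and leaving out each library were tried.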

Additional observations from a re-analysis of the deposited data

How the results depend on the processing

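The number of genes that passed depended on the processing more than their direction did: every single-gene log2 difference printed kept its sign under each alternative in which the gene was tested, except that of Gm10800 under quantile scaling, which was 0. Against 36 genes (29 higher in Skin, 7 higher in Lung), a pseudocount of 0.5 gave 21 (18 and 3), a pseudocount of 5 gave 55 (41 and 14), no pseudocount 17 (15 and 2), no filter on low values 127 (82 and 45) and a mean of at least 10 gave 49 (37 and 12). Quantile scaling gave 175 (123 and 52), median ratio scaling 2 (2 and 0), scaling to the protein-coding total 26 (16 and 10), a weight per library 344 (143 and 201), a weight per tissue 54 (37 and 17), and all 18 libraries in the fit 1650 (393 and 1257). Without a trend in the prior limma called 0 in either direction, with 1708 at an unadjusted p under 0.05. The robust prior gave 44 (36 and 8). Leaving out 1 library gave 0 to 73 genes, 0 to 54 higher in Skin and 0 to 19 higher in Lung. With scalings added after seeing the data, the protein-coding total without satellite-related genes gave 45 (39 and 6) and the neutrophil identity sum 27 (26 and 1). The share of calls higher in Skin, 80.6% in the fit reported, was 61.5% with the protein-coding total, 70.3% with quantile scaling, 100% with median ratio scaling and 96.3% with the neutrophil identity sum. The median log2 difference of all genes, -0.69, was -0.09 with quantile scaling, 0.17 with median ratio scaling, -1.32 with the protein-coding total and -0.16 with the neutrophil identity sum. The cause of these changes was not tested. Deviations of same-numbered libraries had correlations of 0.13, -0.04 and 0.12, and those of the other Skin and Lung pairs ran from -0.18 to 0.07. With 3 libraries per tissue these correlations cannot decide whether the numbers, or the letters A, B and C that go with them, pair the libraries. With the replicate block 144 genes passed (93 and 51). Depth limits genes near the value of 3 counts, and 3 libraries per tissue limit the rest.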
